A study of Mus musculus with 21 samples.

Results

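The mitochondrial ribosomal protein genes were taken from the array by name, as all non-control probes whose gene name starts with Mrpl or Mrps followed by a number. The rule found 76 genes among 19650 genes tested, 47 named for the large subunit (Mrpl) and 29 for the small subunit (Mrps). They were covered by 133 spots and 106 probes, of which 104 passed the brightness filter, and the brightest probe of each gene was used. All 76 genes were well above background on all 21 arrays, so no member was lost to the filter, and 1 of 1596 values was missing (Mrps28 in 1 liver). The donors were C57BL/6J mice, an inbred strain, all of them males and adults. They had a run-in of 3 weeks on a normal-fat diet and then ate a high-fat diet for 12 weeks, plain (HF, 11 livers) or with 0.33% quercetin, a plant flavonoid, by weight (HF-Q, 10 livers). All had been fasted for 2 to 4 hours before the liver was taken. No liver from a mouse kept on normal-fat food is among the samples used here. Each liver was labelled with Cy5 and set on a 2-colour array against a Cy3 pool of all livers. A value is therefore the log2 of that liver over the pool. With all livers in Cy5, a difference between the dyes for a probe cannot be told apart from a gene's distance to the pool. Comparisons between livers share the same dyes. The part of the dyes in genes that lay on the same side of the pool in every liver was not tested.

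Mitochondria carry their own ribosome, which translates the few messages of the mitochondrial genome, all of them for core subunits of the respiratory chain and ATP synthase. Its RNAs come from the mitochondrial genome, but its proteins are encoded in the nucleus, made in the cytosol and imported. The large subunit joins amino acids, and the small subunit holds the message and reads the codons. Some of the proteins have bacterial homologues, and others are found only in mitochondrial ribosomes. In a bulk liver sample, fewer cells of a type and less RNA per cell cannot be told apart.

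Several textbook regulators of nuclear genes for mitochondria act through short promoter motifs: NRF1, the ETS factor GABPA (also called NRF2) and YY1. Because the members varied together from liver to liver, as described further on, their promoters were searched on both strands for the NRF1 core, a palindrome of G and C around a central AT with any letter at the fifth base, the ETS core (CCGGAAG) and a YY1 core (AAGATGGCG). RefSeq windows on GRCm38.p6, running from 250 bases before to 50 bases after the gene start, were at hand for 67 of the 76 members. Mrpl4, Mrpl13, Mrpl15, Mrpl19, Mrpl38, Mrpl54, Mrps28, Mrps34 and Mrps35 were not searched. The 5 promoters below are examples that hold an NRF1 or ETS match, from members described by name later. Other members described by name, among them Mrpl11, Mrpl28 and Mrpl40, had neither match in their windows. Each promoter is shown as the 250 bases before the start, 5′ to 3′ on the gene's strand, with NRF1 or ETS matches in capitals. In the Mrpl9 promoter the NRF1 match lies 28 to 19 bases before the start (chr3:94443086-94443335, plus strand). The Mrpl45 promoter holds 2 NRF1 matches here, both read on the opposite strand (chr11:97315466-97315715, plus strand). In the Mrpl12 promoter the NRF1 match lies 81 to 72 bases before the start (chr11:120484387-120484636, plus strand). The Mrps22 promoter has an ETS match 11 to 5 bases before the start (chr9:98601680-98601929, minus strand). The Mrpl53 promoter has 2 ETS matches, 1 on each strand (chr6:83108858-83109107, plus strand).
Mrpl9: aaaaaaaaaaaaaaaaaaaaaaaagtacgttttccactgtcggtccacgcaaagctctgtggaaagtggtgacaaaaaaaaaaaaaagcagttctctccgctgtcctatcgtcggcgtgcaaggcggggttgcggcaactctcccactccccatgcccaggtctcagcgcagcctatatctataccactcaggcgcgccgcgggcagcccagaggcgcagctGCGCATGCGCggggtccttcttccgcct
Mrpl45: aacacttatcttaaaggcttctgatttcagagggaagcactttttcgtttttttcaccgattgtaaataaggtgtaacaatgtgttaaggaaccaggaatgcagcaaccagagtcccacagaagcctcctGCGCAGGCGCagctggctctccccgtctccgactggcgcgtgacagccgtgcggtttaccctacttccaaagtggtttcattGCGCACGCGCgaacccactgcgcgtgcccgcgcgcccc
Mrpl12: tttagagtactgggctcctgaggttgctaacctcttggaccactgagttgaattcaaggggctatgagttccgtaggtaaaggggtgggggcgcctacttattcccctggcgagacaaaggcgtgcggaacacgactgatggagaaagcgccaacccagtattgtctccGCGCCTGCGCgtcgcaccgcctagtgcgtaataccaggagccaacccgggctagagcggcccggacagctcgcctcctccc
Mrps22: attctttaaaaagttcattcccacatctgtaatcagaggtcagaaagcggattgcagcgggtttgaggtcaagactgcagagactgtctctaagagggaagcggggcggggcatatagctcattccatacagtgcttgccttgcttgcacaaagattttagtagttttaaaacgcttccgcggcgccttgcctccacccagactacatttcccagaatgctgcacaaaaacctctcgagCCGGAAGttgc
Mrpl53: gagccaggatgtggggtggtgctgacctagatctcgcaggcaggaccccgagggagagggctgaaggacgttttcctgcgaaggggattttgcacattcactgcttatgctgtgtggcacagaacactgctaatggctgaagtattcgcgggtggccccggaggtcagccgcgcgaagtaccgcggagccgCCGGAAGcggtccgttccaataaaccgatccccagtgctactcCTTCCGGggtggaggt

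The NRF1 core was found for 12 of 67 members with a window (17.9%), against 7.17% of 17492 protein-coding genes with a window. That background was not limited to genes measured in these livers. The shares were not counted for cytosolic ribosomal or oxidative phosphorylation genes, so an excess is not shown to be particular to the members. With the fifth base fixed as A, the form in capitals in the Mrpl9 promoter, it was in 3 windows (4.48%, against 1.47%), those of Mrpl9, Mrpl32 and Mrpl39. The ETS core was in 24 of 67 (35.8%, against 12.9%), and 33 (49.3%) held the NRF1 or the ETS core, against 18.6%. The YY1 core was in 8 windows (11.9%, against 2.14%), and a longer form, which is the shorter with GC added at its 3′ end, in 5 (7.46%, against 1.06%). The NRF1 core was found for 9 of 41 large subunit and 3 of 26 small subunit genes, and the ETS core for 13 and 11. The median GC content of the member windows was 58%, and 56.3% for protein-coding genes. A match is a run of letters in a window and was not tested as a binding site.

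**Figure D1:**
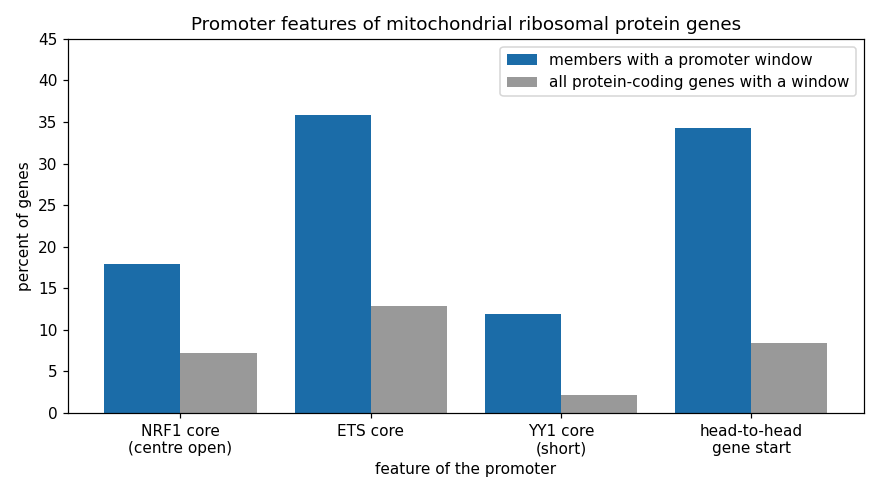
Percent of genes with each promoter feature, for the 67 members with a RefSeq window (blue) and all 17492 protein-coding genes with a window (grey). The members' bar is the taller of each pair, from 11.9% against 2.14% for the short YY1 core to 35.8% against 12.9% for the ETS core. A head-to-head start is one on the opposite strand within 1000 bases.

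Many of the member genes also start back to back with a neighbour. For 23 of the 67 (34.3%) the start of another protein-coding gene on the opposite strand lay within 1000 bases, against 8.48% of all 17492. Here too the background was not limited to genes measured in these livers. Mrpl46 and Mrps11, 1 protein of each subunit, faced each other. Mrps12 faced Sars2, the mitochondrial seryl-tRNA synthetase, and Mrpl43 faced Twnk, the helicase that unwinds mitochondrial DNA. Mrpl47 faced Ndufb5, a subunit of respiratory complex I, and Mrps27 faced Ptcd2, a mitochondrial RNA-processing protein. Mrpl40 faced Hira, a histone chaperone, and Mrpl49 faced Fau, which encodes a cytosolic ribosomal protein.

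Whether quercetin in the high-fat diet went with a different level of this ribosome's messages was asked of each member. None of the 76 passed the test between diets, and every member's values overlapped between HF and HF-Q. In limma over all genes, 0 of 76 members had an adjusted p under 0.05 (all genes: 0%, lowest adjusted p 0.380). At an unadjusted p under 0.05, 0 of 76 were called, against 1166 of 19650 genes (5.93%; 3.02% higher and 2.91% lower in HF-Q). The lowest unadjusted p of a member in limma was 0.111, for Mrpl11. Groups that do not overlap were seen for 1 gene of the whole array (0.00509%) and for 0 of 76 members.

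The differences were small as well as uncalled. The log2 fold change, HF-Q minus HF, ran from -0.076 for Mrpl9 to 0.088 for Mrpl28, with a median of 0.010, beside -0.0044 over all genes tested. It was above 0 for 45 of 76 members (59.2%), against 46.9% of all genes. The 95% intervals of the single members reached at most from -0.17 (Mrpl9, a fold of 0.886) to 0.21 (Mrpl28, a fold of 1.15). For 74 of the 76 the whole interval lay within 0.2 of 0 on the log2 scale, as it did for 75.2% of all genes. For 34 it lay within 0.1, a bound that was not counted over all genes. The members varied little between livers of a diet: their median residual SD was 0.088, against 0.126 for all genes, and 73 of 76 lay below that value. This SD holds both differences between mice and measurement noise, and was not compared with that of genes of like brightness. The count of higher members depended on the processing. It was 75 of 76, with a median of 0.057 beside 0.024 over all genes, when each array's ratios were only centred on their median. It was 63 of 76 with a median of 0.027 in the deposited normalized table, and 36 of 76 with a median of -0.0022 when arrays were weighted by quality.

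**Figure D2:**
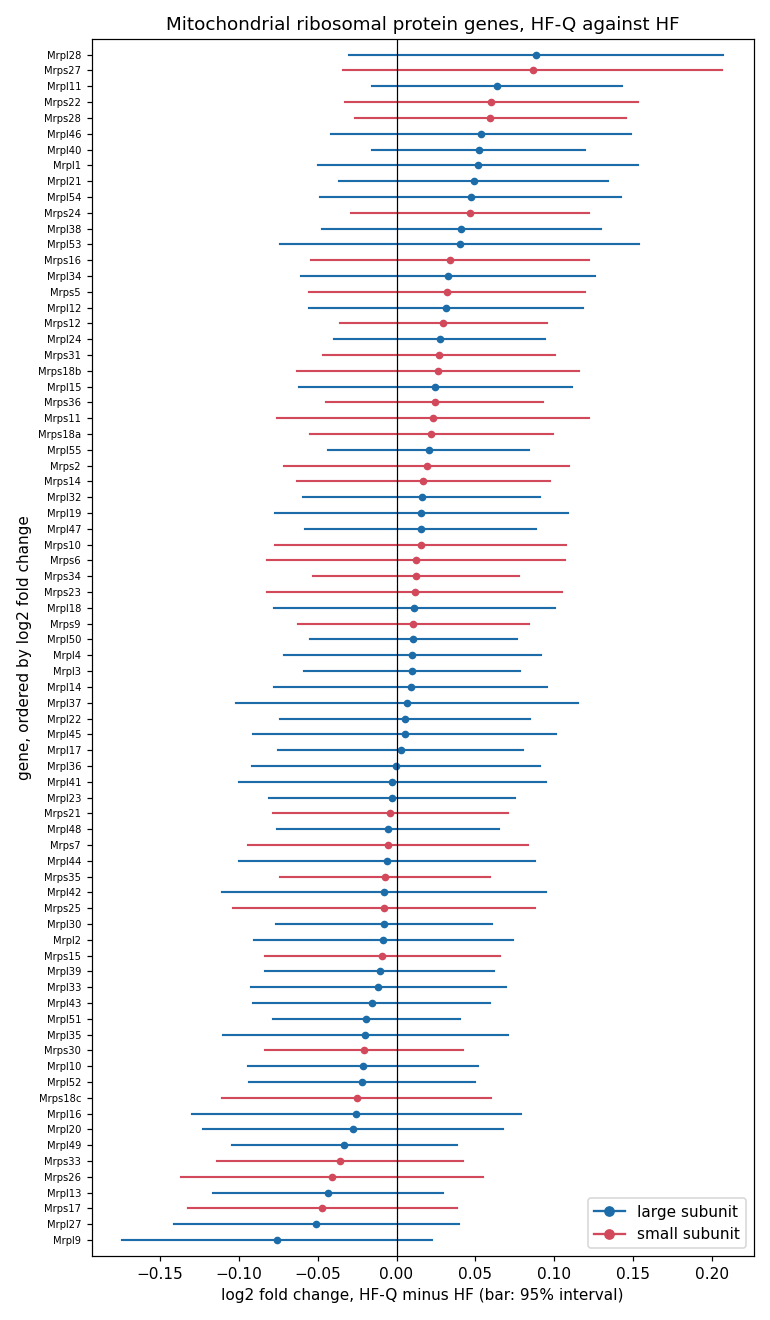
Log2 fold change of each of the 76 members, HF-Q minus HF (points), with its 95% interval (bars), ordered by size and coloured by the subunit in the gene's name. Every bar crosses 0, and the points run from -0.076 for Mrpl9 to 0.088 for Mrpl28.

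Large and small subunit genes were set against each other next. Of the 47 large subunit genes 26 were higher in HF-Q and 21 lower, with a median log2 fold change of 0.0053. Of the 29 small subunit genes 19 were higher and 10 lower, with a median of 0.015. Within each liver the median log2 ratio of large subunit genes was close to that of small subunit genes. The large minus small difference was -0.0018 ± 0.021 in HF livers (SD, n = 11) and -0.0063 ± 0.025 in HF-Q livers (SD, n = 10). HF-Q minus HF, the 2 diets thus differed by -0.0045, less than the spread between livers of either diet. Both subunits lay on the same side of the pool in 10 HF livers of 11 and in 9 HF-Q livers of 10. The names do not match the structure everywhere: the proteins of Mrps30 and Mrps18a sit in the large subunit, and that of Mrps36 is known as a part of the 2-oxoglutarate dehydrogenase complex rather than of the ribosome. With Mrps30 and Mrps18a moved to the large subunit, and Mrps36 left out, the difference between diets was 0.0015.

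The members were also divided by ancestry. Of 45 proteins with a bacterial homologue 28 were higher in HF-Q, with a median log2 fold change of 0.011. Of 29 placed in the class of proteins specific to mitochondrial ribosomes 15 were higher, with a median of 0.0051. That class was given Mrps18a (0.022) and Mrps18b (0.026), while Mrps18c (-0.025) was placed with the bacterial homologues. The division is therefore not exact for genes that share the Mrps18 name. Mrpl55 and Mrps36 were placed in neither class, with log2 fold changes of 0.020 and 0.024. In neither class was any member called at an unadjusted p under 0.05.

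The members of lowest p that were higher in HF-Q were Mrpl11, Mrpl40, Mrpl28, Mrps27, Mrps28 and Mrps22. Mrpl11 belongs to the base of the flexible stalk where translation factors land (probe at chr19:4964880-4964939 on NCBI37). Its log2 ratio ran from -0.25 through a median of -0.14 to -0.015 in HF livers and from -0.15 through -0.11 to 0.11 in HF-Q livers. HF-Q 10 and HF-Q 7, at 0.11 and 0.062, were the only livers above the pool, and the other 8 HF-Q livers lay inside the HF range. The log2 fold change of Mrpl11 was 0.064 ± 0.038 (SE), with an unadjusted p of 0.111 and an adjusted p of 0.911 in limma.

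Mrpl40, a protein with no bacterial homologue (chr16:18872311-18872370), ran from -0.054 through 0.086 to 0.16 in HF and from 0.054 through 0.13 to 0.23 in HF-Q. HF 11 was its lowest liver and HF-Q 7 its highest, and the groups shared the stretch from 0.054 to 0.16. Its log2 fold change was 0.052 ± 0.033 (SE, adjusted p 0.922 in limma). A second kept probe of Mrpl40 gave 0.046 and correlated with the one used at r = 0.868 over 21 livers.

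Mrpl28, a large subunit protein with a bacterial homologue (chr17:26261526-26261585), had the largest difference of all members in the upward direction. Its ratio ran from -0.23 through -0.029 to 0.15 in HF livers and from -0.21 through 0.050 to 0.31 in HF-Q livers. The spread within each diet, an SD of 0.12 in HF (n = 11) and 0.15 in HF-Q (n = 10), was wider than the log2 fold change of 0.088 ± 0.057 (SE, adjusted p 0.938 in limma). Mrps27, a small subunit protein with pentatricopeptide repeats (chr13:100185032-100185091), behaved much the same in size. It ran from -0.23 through 0.021 to 0.19 in HF and from -0.17 through 0.10 to 0.31 in HF-Q. Its log2 fold change was 0.086 ± 0.058 (SE, adjusted p 0.941 in limma). For both genes HF 6 was the lowest liver of all and HF-Q 10 the highest.

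Mrps28, the mitochondrial counterpart of the bacterial S1 protein family (chr3:8802222-8802281), was below the pool in every HF liver measured, from -0.19 through -0.13 to -0.015. In HF-Q it ran from -0.18 through -0.064 to 0.13. HF 1, the HF liver with the highest member median (0.099), gave no value, so the HF group held 10 livers. HF-Q 10, with the highest in HF-Q (0.13), was kept. The only values above the pool were those of HF-Q 7 and HF-Q 10. The log2 fold change of Mrps28 was 0.059 ± 0.041 (SE, adjusted p 0.948 in limma), and the part of the missing liver in it was not tested. Mrps22, a small subunit protein without a bacterial homologue whose ETS match is printed above (chr9:98489251-98489310), ran from -0.011 through 0.056 to 0.27 in HF and from 0.020 through 0.12 to 0.30 in HF-Q. Its log2 fold change was 0.060 ± 0.045 (SE, adjusted p 0.961 in limma).

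The members of lowest p that were lower in HF-Q were Mrpl9, Mrpl13, Mrpl27, Mrps17, Mrpl49 and Mrps33. Mrpl9, a large subunit protein with a bacterial homologue (chr3:94252112-94252171), ran from -0.045 through 0.064 to 0.38 in HF livers and from -0.11 through -0.0036 to 0.21 in HF-Q livers. HF 1 stood above all other livers at 0.38, and HF-Q 10 was the lowest of all at -0.11. These are the same 2 livers that held the highest values of most other members. The log2 fold change of Mrpl9 was -0.076 ± 0.048 (SE, adjusted p 0.922 in limma).

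Mrpl13, a large subunit protein with a bacterial homologue (chr15:55365795-55365854), ran from -0.13 through -0.026 to 0.14 in HF and from -0.13 through -0.065 to 0.054 in HF-Q. HF-Q 10 was its only HF-Q liver above the pool. Its log2 fold change was -0.044 ± 0.035 (SE, adjusted p 0.970 in limma). Mrpl27, whose bacterial homologue reaches into the site of peptide bond formation (chr11:94521320-94521379), lay above the pool in every liver. It ran from 0.11 through 0.21 to 0.37 in HF and from 0.074 through 0.15 to 0.46 in HF-Q. HF-Q 10 held the top value at 0.46, while the 9 other HF-Q livers reached at most 0.24. Its log2 fold change was -0.051 ± 0.044 (SE, adjusted p 0.976 in limma). Without HF-Q 10 the log2 fold change of Mrpl27 was -0.082, with an unadjusted p of 0.033 and an adjusted p of 0.585 in limma.

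Mrps17 (chr5:130224174-130224233) and Mrps33 (chr6:39752333-39752392) belong to the small subunit, Mrpl49 (chr19:6053882-6053941) to the large. Mrps17 differed by -0.047 ± 0.041 (log2, SE), Mrpl49 by -0.033 ± 0.034 and Mrps33 by -0.036 ± 0.038, all with an adjusted p of 0.976 in limma. Their medians were 0.035, 0.032 and 0.032 in HF against -0.0081, -0.0083 and -0.015 in HF-Q, in that order. The highest Mrps17 value was that of HF-Q 10, and the highest Mrps33 value that of HF 1. A second kept probe of Mrpl49 gave a log2 fold change of 0.0062, of the opposite sign (r = 0.632 with the probe used). The second kept probes of Mrps17 and Mrps33 gave -0.043 each, of the same sign.

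**Figure D3:**
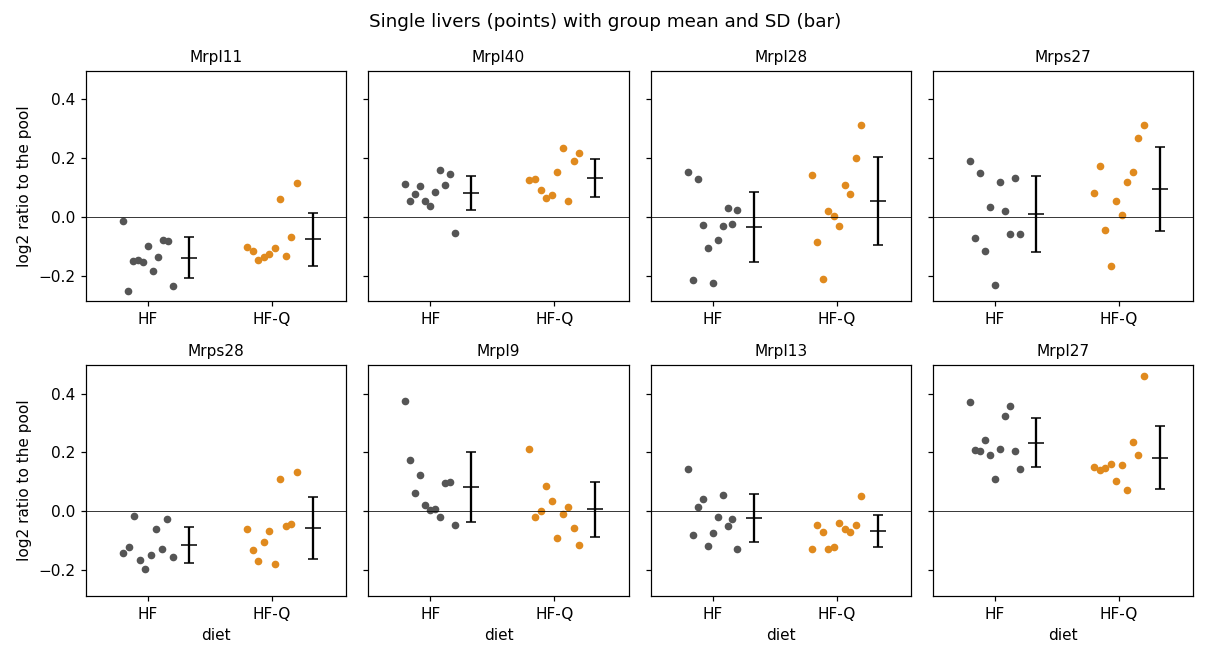
Log2 ratio to the pool in every liver (points) for 5 members of low p that were higher in HF-Q and 3 that were lower, with the group mean and SD (bars), for 11 HF and 10 HF-Q livers. The groups overlap in every panel, and single points such as Mrpl27 at 0.46 and Mrpl9 at 0.38 lie far from the rest.

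A further set of members was taken for their roles. Mrpl12 forms the flexible stalk and is also known to bind the mitochondrial RNA polymerase. It ran from -0.20 through -0.087 to 0.012 in HF and from -0.22 through -0.068 to 0.091 in HF-Q, a log2 fold change of 0.031 ± 0.042 (SE, adjusted p 0.988 in limma). Mrpl3, which reaches toward the catalytic centre, was at -0.0011 ± 0.051 in HF (SD, n = 11) and 0.0088 ± 0.074 in HF-Q (SD, n = 10).

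Mrpl45 sits at the exit of the nascent chain next to the inner membrane. Its mean log2 ratio was -0.034 ± 0.091 in HF (SD, n = 11) and -0.029 ± 0.12 in HF-Q (SD, n = 10), a difference whose sign turned under several other settings. Mrpl44, which carries a fold related to ribonuclease III, was above the pool in all 21 livers, from 0.014 through 0.20 to 0.41 in HF and from 0.018 through 0.22 to 0.29 in HF-Q. Its log2 fold change of -0.0058 ± 0.045 (SE) also turned sign under several settings.

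Mrps12, a protein of the decoding centre, ran from -0.24 through -0.11 to 0.029 in HF and from -0.16 through -0.076 to -0.014 in HF-Q. Among the members whose names do not match their place, Mrps18a had a log2 fold change of 0.022 ± 0.037 (SE), Mrps30 of -0.020 ± 0.030 and Mrps36 of 0.024 ± 0.033. The lowest adjusted p of this set other than Mrps22 was 0.976 in limma, for Mrps12.

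The members that varied most over livers, after the diet means were taken out, were Mrps27 (residual SD 0.136), Mrpl28 (0.134), Mrpl53 (0.128) and Mrpl37 (0.121). Mrpl53, a large subunit protein without a bacterial homologue, ran from -0.27 through -0.065 to 0.19 in HF and from -0.25 through -0.023 to 0.15 in HF-Q. Mrpl37, another such protein, ran from -0.15 through 0.045 to 0.29 in HF and from -0.11 through 0.034 to 0.32 in HF-Q. Both ranges cover nearly the same ground in the 2 diets. The least variable member was Mrpl51, with a residual SD of 0.047, which lay below the pool in all 21 livers, from -0.22 to -0.021 in HF and from -0.22 to -0.091 in HF-Q.

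The members' level differed more between livers than between diets. The median log2 ratio over all members was highest in HF-Q 10, at 0.13, and in HF 1, at 0.099. It was lowest in HF 11 and HF 6, at -0.092 and -0.091, followed by HF 2 at -0.074 and HF-Q 2 and HF-Q 4, both at -0.072. Each diet thus held livers at both ends. By diet the medians averaged -0.018 ± 0.055 in HF (SD, n = 11) and -0.0083 ± 0.063 in HF-Q (SD, n = 10). HF-Q 10 was the highest liver for 37 of the 76 members and HF 1 for 18, and in each of them 62 members lay above the pool. HF 11 was the lowest for 17 members, HF-Q 2 for 16 and HF 6 for 15.

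**Figure D4:**
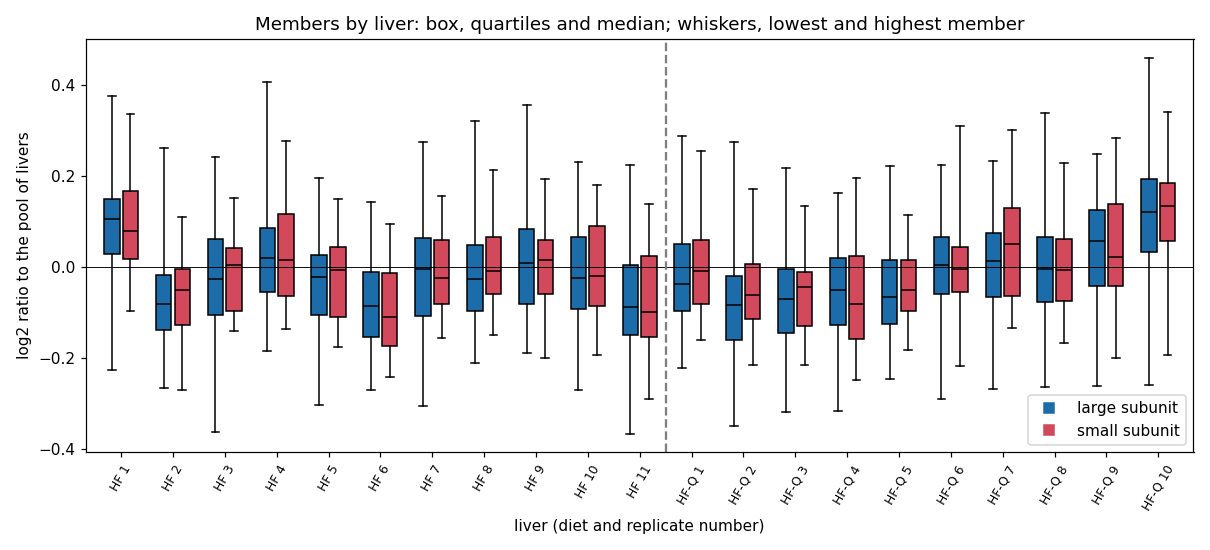
Distribution of the members' log2 ratios to the pool in each of the 21 livers, for 47 large subunit (blue) and 29 small subunit genes (red) by name, with boxes for quartiles and median and whiskers to the lowest and highest member. The blue and red boxes of a liver sit close together, and those of HF 1 and HF-Q 10 sit highest.

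In several of these livers other measures moved too. Of 6 pancreatic acinar markers 4 were tested, and their median log2 ratio was 1.78 in HF 5 and 2.44 in HF 11 but at most -0.13 in the other 19 livers. Without HF 5 and HF 11 the median fold change of the members was 0.0009 on the log2 scale and 40 of 76 were higher. The median of 6 hepatocyte markers was lowest in HF-Q 10 (-0.033) and second lowest in HF-Q 7 (0.033), against up to 0.52 in other livers, while all 6 were measured. HF 6, with the second lowest member median, had the highest medians of 6 Kupffer cell and macrophage markers (0.29) and of 5 endothelial markers (0.16). None of these markers passed an unadjusted p of 0.05 between diets. The part of these markers in the members' values was not tested. Without HF 1 and HF-Q 10, the 2 livers with the highest member medians, the median fold change was 0.0061 and 43 members were higher.

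Both diets were present on each of the 3 slides, and the direction differed between slides. On slide 1 (3 HF, 4 HF-Q) 64 of 76 members were higher in HF-Q, with a median log2 fold change of 0.055. On slide 2 (4 HF, 2 HF-Q) 19 were higher, with a median of -0.035, and on slide 3 (4 and 4) 36, with a median of -0.0056. With the slide as a block 46 were higher and the median was 0.0075. HF 11 and HF-Q 10, near opposite ends of the range, were both on slide 1.

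The members rose and fell together across livers. Over all 2775 pairs of the 75 members measured in all 21 livers the median Pearson r was 0.417, and 90.1% of pairs had an r above 0. Pairs of large subunit genes had a median r of 0.410, pairs of small subunit genes 0.427, and pairs of 1 gene from each 0.424. The same median was 0.001 over pairs of all genes and 0.00597 over pairs among 2391 genes of like brightness. All of these pairs share the same 21 arrays and the same pool, so they are a description of these livers. With diet and slide means removed the members' median r was 0.457. It was 0.391 over HF livers alone and 0.473 over HF-Q livers alone. It fell to 0.261 without HF 1 and HF-Q 10, so part of it rested on those 2 livers. Under median centring alone it was 0.939, but genes of like brightness then also reached 0.819. In the deposited table it was 0.616, against 0.198.

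Members differed in how far they shared this pattern. The highest median r with the other members was that of Mrpl32 (0.616), followed by Mrps10 (0.599), Mrpl54 (0.576), Mrps16 (0.572) and Mrpl16 (0.563). Mrpl32 is the large subunit protein whose maturation by the m-AAA protease is a known step of ribosome assembly. The lowest were Mrps26 (-0.060), Mrpl51 (-0.039), Mrpl47 (0.035), Mrpl9 (0.069) and Mrps31 (0.11). The members with A at the fifth base of the NRF1 core were Mrpl32 (0.616), Mrpl39 (0.284) and Mrpl9 (0.069). The part of the motif in this order was not tested.

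**Figure D5:**
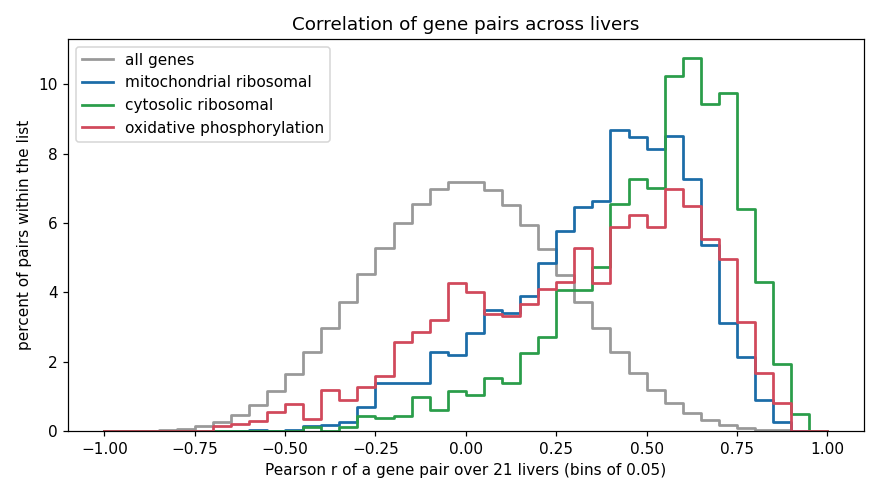
Distribution of Pearson r over 21 livers for gene pairs among mitochondrial ribosomal protein genes (blue), cytosolic ribosomal protein genes (green), nuclear oxidative phosphorylation genes (red) and all genes (grey), as percent of pairs in bins of 0.05. The grey curve is centred near 0, and the blue curve lies to its right with a median of 0.417. Only genes measured in all 21 livers are included.

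Other parts of the mitochondrial translation system shared the pattern to different degrees. Against 7 ribosomal proteins of mitochondria that carry other symbols, such as Ict1, a release factor built into the large subunit, the members' median r was 0.484. It was 0.272 with nuclear oxidative phosphorylation genes and 0.221 with the list of mitochondrial aminoacyl-tRNA synthetases, whose contents are given below. It was 0.164 with assembly factors and 0.110 with translation factors. With mitochondrial transcription genes, a list that also holds nuclear regulators such as Nrf1 and Gabpa, it was -0.029. With cytosolic ribosomal protein genes it was -0.048. This order rested in part on single livers. Without HF 1 and HF-Q 10 the median r was 0.292 with the proteins under other symbols, 0.163 with tRNA synthetases, 0.150 with oxidative phosphorylation genes, 0.105 with translation factors and 0.102 with assembly factors. By diet it was 0.364 in HF and 0.210 in HF-Q livers for oxidative phosphorylation genes, and 0.0773 and 0.241 for assembly factors. The cytosolic genes correlated among themselves at a median of 0.568, so each ribosome's genes varied together but not with those of the other. Only genes measured in all livers entered these pairs, so the lists were not covered in full. There were 1653 pairs among cytosolic genes and 2346 among oxidative phosphorylation genes.

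The related lists were read in the same comparison of diets. Of 7 mitochondrial ribosomal proteins under other symbols 3 were higher in HF-Q (median log2 fold change -0.00040), with Ict1 at 0.047 ± 0.044 (SE) and Chchd1 at 0.037 ± 0.041. Of 24 assembly factors 14 were higher (median 0.0028). The lowest p were those of Mettl15, a methyltransferase of the small subunit rRNA, at -0.096 ± 0.054, and Mterfd1 at 0.096 ± 0.055. Of 21 genes listed as aminoacyl-tRNA synthetases 12 were higher (median 0.0087), with Fars2, for phenylalanine, at -0.090 ± 0.044 and Iars2, for isoleucine, at -0.065 ± 0.035. The synthetase list also holds Qrsl1, Pet112l and Gatc, which are not synthetases, and Gars and Kars, which serve the cytosol as well. Of 14 translation factors 7 were higher (median -0.012), with Lrpprc, which stabilises mitochondrial messages, at -0.084 ± 0.059 and Guf1, a translation elongation factor, at 0.14 ± 0.11. Without HF-Q 7, in which Guf1 stood at 1.19, its log2 fold change was 0.033, and without HF-Q 10 that of Lrpprc was -0.046. Of 13 transcription genes 4 were higher (median -0.023), with Mterf at 0.081 ± 0.041 and Pprc1, a coactivator of the PGC-1 family, at 0.063 ± 0.037. The transcription list mixes genes that act in mitochondria, such as Polrmt and Tfam, with nuclear regulators. Among the regulators are Nrf1 (0.0066), Gabpa (-0.012) and Yy1 (-0.065), whose motifs were searched above. In these 5 lists 0 genes were called at an unadjusted p under 0.05, and the lowest adjusted p in limma was 0.850, for Fars2.

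Cytosolic ribosomal protein genes and nuclear oxidative phosphorylation genes give the closest comparisons. Of 81 cytosolic ribosomal protein genes 80 were higher in HF-Q, with a median log2 fold change of 0.067, and 24 were higher at an unadjusted p under 0.05. Over all genes 46.9% were higher, and 3.02% were higher at that level. Of 82 oxidative phosphorylation genes 17 were higher, with a median of -0.021, and 2 were called at that level, 1 in each direction, against 5.93% of all genes. In both lists 0 genes had an adjusted p under 0.05 in limma. The share of genes higher and the median of the mitochondrial ribosomal genes lay between those of the other lists, and their 0 called genes of 76 were fewer than in either. The difference between the lists was not tested.

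Probes of the same gene did not always give the same answer. For 24 members with more than 1 kept probe there were 28 further probes, of which 23 gave a fold change of the same sign as the probe used. Their correlation with the used probe over livers ran from -0.33 to 0.96, with a median of 0.66. The log2 fold changes differed by at most 0.14, for a probe of Mrpl47 at 0.16 beside 0.015 for the one used. With all kept probes averaged, Mrpl47 had an unadjusted p of 0.0258 at a log2 fold change of 0.076 (adjusted p 0.800 in limma).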

How the data were processed

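RNA from 200 ng per liver was labelled and hybridised to 2-colour Agilent arrays, per the labels' protocols. Of 24 mice in the study, 3 arrays had been set aside by the authors for uneven hybridisation, per the labels. Each array's scanner output, as deposited, gives the mean intensity of a spot and of its local background without normalization, per the file headers. The software was Agilent Feature Extraction 10.7.3.1, per the submitters' processing notes. Other columns hold flags of 0 or 1 for outlying, saturated and well-above-background spots, per the file headers. A second deposited table, on the log2 scale, was used only as an alternative. Its correlation with the Cy5 signal was 0.985 to 0.999 per array. All column medians were 7.92, set by a step not given in the sources used here.

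From the intensities, background was corrected with normexp (offset 50) and each array's ratios were normalized by loess, both with limma 3.58.1 (R 4.3.3). The offset pulls ratios of dim genes toward 0. Control spots and spots flagged as outliers had weight 0 and were then left out, and replicate spots were averaged per probe. Probes were kept if well above background in Cy5 on at least 10 of 21 arrays, and the brightest kept probe stood for each gene name of the array. Per array, 44.2% to 51.3% of probes passed that mark. The diets were compared with limma (lmFit and eBayes, two-sided) over all 19650 genes, with Benjamini-Hochberg adjustment and a threshold of 0.05. The number of arrays limits the precision. Each p-value sets the difference between diets against the spread between livers of a diet, which holds measurement noise as well as differences between mice. The fit was tested on simulated data. Levels of different probes were not compared. The slide of each array was read from the deposited file names.

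Members and lists were chosen with earlier results of these data known, so no test over a list was made, and lists are described by counts and medians. Members described by name were the 6 of lowest p in each direction, the 4 of highest residual SD and a panel chosen for its roles, with up to 2 genes of lowest p per related list. Members named for their correlations, spread, neighbours or probes beyond that were chosen after their values were seen. Mrpl1 to Mrps36 keep the array's names, all 76 matched RefSeq symbols, and probe coordinates are those of the files on NCBI37. Whether a probe lies in an exon or UTR was not looked up, as no annotation of that build was used here. Alternatives changed the background correction, normalization, probe filter and choice, variance model, weights, blocks and livers used. The alternatives without HF 5 and HF 11, without HF 1 and HF-Q 10, and with scaling between arrays were chosen after seeing the data. R scripts made the values, and Python 3.11.15 the promoter search and figures.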

Additional observations from a re-analysis of the deposited data

Results flagged for a closer look

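A search for single HF-Q livers far from the other 9 covered 46 genes and list medians and found 7. Chance alone gives about 1 in 20 for a single check. The checks share livers and some genes, so the count cannot be set against that rate. The HF group, with 11 livers, was too large for this check. Among the members, Mrpl13 in HF-Q 10 (log2 ratio 0.0537) and Mrpl27 in HF-Q 10 (0.461) lay far above the other HF-Q livers. In the same liver the median of mitoribosome assembly factors (0.167) and that of nuclear oxidative phosphorylation genes (0.0807) lay above the rest, and Lrpprc (-0.203) lay below. Guf1 in HF-Q 7 stood at 1.19, and the median of mitochondrial translation factors in HF-Q 4 at -0.0427. HF-Q 10 also had the highest member median, 0.129, and the lowest median of hepatocyte markers, -0.033. The part of that difference in its other values was not tested.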

How the results depend on the processing

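No setting tried gave a member with an adjusted p under 0.05 in limma. At an unadjusted p under 0.05, 1 member was called with the mean of kept probes (Mrpl47) and 1 on slide 1 alone (Mrpl21). The replicate block also gave 1 (Mrpl9 at -0.089, adjusted p 0.869 in limma). With single livers left out 0 to 1 were called (Mrpl9, Mrpl28, Mrps27 or Mrpl27). Of all genes tested, 4.52% to 7.84% were called at that level with single livers left out. Over the other settings that share ran from 1.22% to 8.93%. Of all genes, 1 passed the threshold with array weights, on slide 2 alone and without HF 1 and HF-Q 10, and 0 to 4 when single livers were left out, up to 4 without HF 2. The median fold change of all members ran from -0.0059 to 0.018 over those fits, that of large subunit genes from -0.012 to 0.016 and that of small subunit genes from 0.0015 to 0.024. Replicate numbers were shared by livers of both diets but did not pair them: same-numbered livers correlated at -0.337 to 0.162, and 0 of 10 pairs correlated best with their own number. With the replicate block the median was 0.0041, and no call at the adjusted threshold changed.

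Under median centring the list medians moved to 0.040 for translation factors, 0.066 for ribosomal proteins under other symbols, 0.141 for cytosolic ribosomal proteins and 0.045 for oxidative phosphorylation genes, and 75 members were higher. Mrpl13 (0.015), Mrpl27 (0.0048), Mrpl44 (0.032), Mrpl49 (0.010), Mrps17 (0.0047), Mrps30 (0.026) and Mrps33 (0.021) then turned positive. On slide 1 alone ribosomal proteins under other symbols were at 0.080 and oxidative phosphorylation genes at 0.031, and the sign turned for Mrpl13 (0.052), Mrpl27 (0.060), Mrpl37 (-0.052), Mrpl44 (0.090), Mrpl49 (0.0094), Mrps17 (0.032) and Mrps33 (0.042). On slide 2 alone transcription genes were at -0.104, oxidative phosphorylation genes at -0.082 and large minus small at -0.032. The sign turned there for Mrpl11 (-0.046), Mrpl3 (-0.035), Mrpl37 (-0.00010), Mrpl40 (-0.0015), Mrpl44 (0.023), Mrpl45 (-0.072), Mrps22 (-0.010), Mrps30 (0.0057), Mrps36 (-0.036), Ict1 (-0.050) and Chchd1 (-0.023). On slide 3 alone transcription genes were at 0.035, and Mrpl3 (-0.0084), Mrpl53 (-0.0050) and Mrps18a (-0.040) turned.

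Mrpl45 also turned with scaling between arrays (-0.0034), the Cy5 channel alone (-0.0081), array weights (-0.015), the replicate block (-0.013), without HF 5 and HF 11 (-0.0062) and without HF 1 and HF-Q 10 (-0.0042). Mrpl44 turned with scaling (0.013), the deposited table (0.0079), the slide block (0.0078) and without HF 1 and HF-Q 10 (0.0062). Mrpl3 turned with the slide block (-0.0013) and without HF 1 and HF-Q 10 (-0.0014), Mrpl37 with array weights (-0.0035) and Mrps30 with the deposited table (0.0017). Pprc1 turned with the Cy5 channel alone (-0.0030) and the deposited table (-0.013). With single livers left out Mrpl3 ran from -0.0059 to 0.022, Mrpl37 from -0.021 to 0.030, Mrpl44 from -0.024 to 0.015 and Mrpl45 from -0.017 to 0.025. The cause of these turns was not tested.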
